A study of Mus musculus with 4 samples.

Results

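Calcium cycling genes of the heart were followed on Visium arrays, which capture RNA in spots on a tissue section, in 4 sections of hearts from Collagen1a1-GFP+ mice of 8 to 12 weeks. The set holds 10 of the 21885 genes in the count tables, chosen by symbol: Ryr2, Atp2a2, Pln, Sln, Hrc, Casq2, Casq1, Trdn, Slc8a1 and Cacna1c. All sections carry the reporter, in which a Collagen1a1 promoter drives GFP and so marks collagen-producing cells. The groups were 1 uninjured control section (labelled female), 1 section 3 days post infarction (3 dpi, labelled female) and 2 sections at 5 dpi, the first labelled female and the second labelled male, with infarcts made by ligation of the left anterior descending artery.

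In each heartbeat calcium enters the cardiomyocyte through the L-type channel, opens the ryanodine receptor of the sarcoplasmic reticulum and so releases the stored calcium that starts contraction. Relaxation follows as the pump SERCA2a returns calcium to the store, under the brake of phospholamban, and the sodium-calcium exchanger carries the rest out of the cell. Inside the store calcium is held by calsequestrin and the histidine-rich calcium binding protein, which triadin ties to the release channel.

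After a filter on spot quality 1146, 1741, 1535 and 1423 spots remained in the control, 3 dpi, first 5 dpi and second 5 dpi sections, with 6250183 to 11010109 unique molecular identifiers (UMIs, counted RNA molecules). Y-linked genes had 704 UMIs in the 5 dpi section labelled female, 1 in that labelled male and 0 in the others, so the sex labels at 5 dpi go against the counts and sex is not used here. Mitochondrially encoded UMIs made up 40.1%, 21.4%, 13.3% and 14.3% of the totals in that order and were left out of the denominators. The 10 cardiomyocyte genes that served as a measure of muscle (Myh6, Tnnt2, Tnni3, Actc1, Myl2, Myl3, Mb, Ckm, Tcap and Ttn) took 9.62%, 4.37%, 1.92% and 3.58% of the non-mitochondrial UMIs. The lowest count of barcodes shared by a pair of sections was 446 and the highest 1165, and barcodes mark positions on the array, not cells.

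Taken over whole sections, 7 of the 9 calcium cycling genes that were detected lay lower in each infarcted section than in the control by at least 1.5-fold, and none lay higher. Of the 8433 genes with a mean of at least 10 CPM (the count scaled to a fixed total of non-mitochondrial UMIs) 9.98% were lower and 38.4% higher by the same rule. There is 1 control section, so these folds carry no test and the intervals behind them cover counting error only. Fewer cardiomyocytes and less RNA per cardiomyocyte cannot be told apart in these sums.

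Atp2a2, which encodes the SERCA2 pump, had levels of 8293 (control), 3261 (3 dpi), 1252 (first 5 dpi) and 2034 CPM (second 5 dpi). Pln, which encodes the pump's inhibitor phospholamban, stood at 4706, 1387, 503 and 1100 CPM in the same order. Both genes had the order control, 3 dpi, second 5 dpi, first 5 dpi, and the control was at least 2.54-fold (Atp2a2) and 3.39-fold (Pln) above the nearest infarcted section. Sln, which encodes sarcolipin, a small SERCA inhibitor known from atrial muscle, had 0 UMIs in every section, which allows up to 0.802, 0.358, 0.314 and 0.361 CPM (3 counts). Of a list of 6 atrial markers Myl7 and Bmp10 were at 0 in the control section and the other 4 were detected there, 1562 UMIs in all. The list, which holds Nppa, a gene also known from stressed ventricular muscle, summed to 79593 to 92501 UMIs in the infarcted sections, where Bmp10 alone was at 0 and only at 5 dpi.

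Ryr2, the release channel of the store, had 425, 191, 111 and 150 CPM, and Trdn, its junctional partner triadin, had 307, 132, 68.5 and 79.9 CPM. Casq2, the cardiac calsequestrin, had 757, 450, 239 and 356 CPM, the smallest control-to-nearest ratio of the 7 lower genes at 1.68-fold. Hrc, the histidine-rich calcium binding protein, had 658, 206, 76.9 and 111 CPM and a control-to-nearest ratio of 3.19-fold. The ratios thus differed between the RNAs of these store proteins.

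Cacna1c, the pore subunit of the L-type channel, had 92.2, 48.7, 38.7 and 42.9 CPM. Slc8a1, the sodium-calcium exchanger NCX1, had 177, 192, 125 and 136 CPM, so the control lay inside the range of the infarcted sections. Casq1, the calsequestrin best known from skeletal muscle, was sparse with 11.5, 9.19, 7.65 and 15.3 CPM. These values rested on 43, 77, 73 and 127 UMIs. The skeletal muscle markers Myh4 and Myh1 had no UMI in the infarcted sections, and the list of 6 skeletal markers summed to 30 UMIs in the control and 185 to 291 in the infarcted sections. Their part in the Casq1 values was not tested.

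To look inside the sections, spots were grouped by the share of the 10 cardiomyocyte genes in their non-mitochondrial UMIs, divided by the 90th percentile of that share in the same section: the lowest class lay under 0.25, the lower-middle class from 0.25 to 0.5, the upper-middle class from 0.5 to 0.75 and the highest class at 0.75 and over. In the infarcted sections 520, 951 and 591 spots were of the lowest class and 503, 285 and 512 of the highest. In the control 1087 of 1146 spots were of the highest class and none of the lowest.

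UMIs were summed per class and section, and the lowest class was compared with the highest over the 3 infarcted sections with the section as a block. All 9 members that passed the filter on low counts fell in the lowest class in 3 of 3 sections, against 28.1% of the 10486 genes tested (29.3% were higher). Sln, with no UMI, was not tested. The median log2 difference of the members was -3.86, that of all genes 0.05.

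Hrc showed the lowest value. Its level went from 630 CPM in the highest class to 26.7 in the lowest at 3 dpi, from 448 to 6.61 in the first 5 dpi section and from 310 to 6.41 in the second. The log2 difference was -5.76 ± 0.23 (SE, edgeR quasi-likelihood test, Benjamini-Hochberg adjusted p = 1.7e-13). Atp2a2 fell from 7072 to 815, from 5380 to 311 and from 4842 to 311 CPM, a log2 difference of -4.17 ± 0.17. Pln fell by 4.29 ± 0.18, Ryr2 by 3.89 ± 0.15, Casq2 by 3.86 ± 0.26 and Trdn by 3.77 ± 0.17 on the log2 scale.

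The other 3 members had values nearer to 0, though all fell. Slc8a1 went from 238 to 101, from 344 to 60.2 and from 228 to 54.6 CPM, a log2 difference of -2.39 ± 0.17 (edgeR quasi-likelihood test, Benjamini-Hochberg adjusted p = 2.44e-10). Cacna1c fell by 2.87 ± 0.17 and Casq1 by 2.02 ± 0.29 (adjusted p = 6.51e-06, same test) on the log2 scale. Without TMM factors the median of all genes moved from 0.05 to 0.52, and each member stayed lower.

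**Figure D1:**
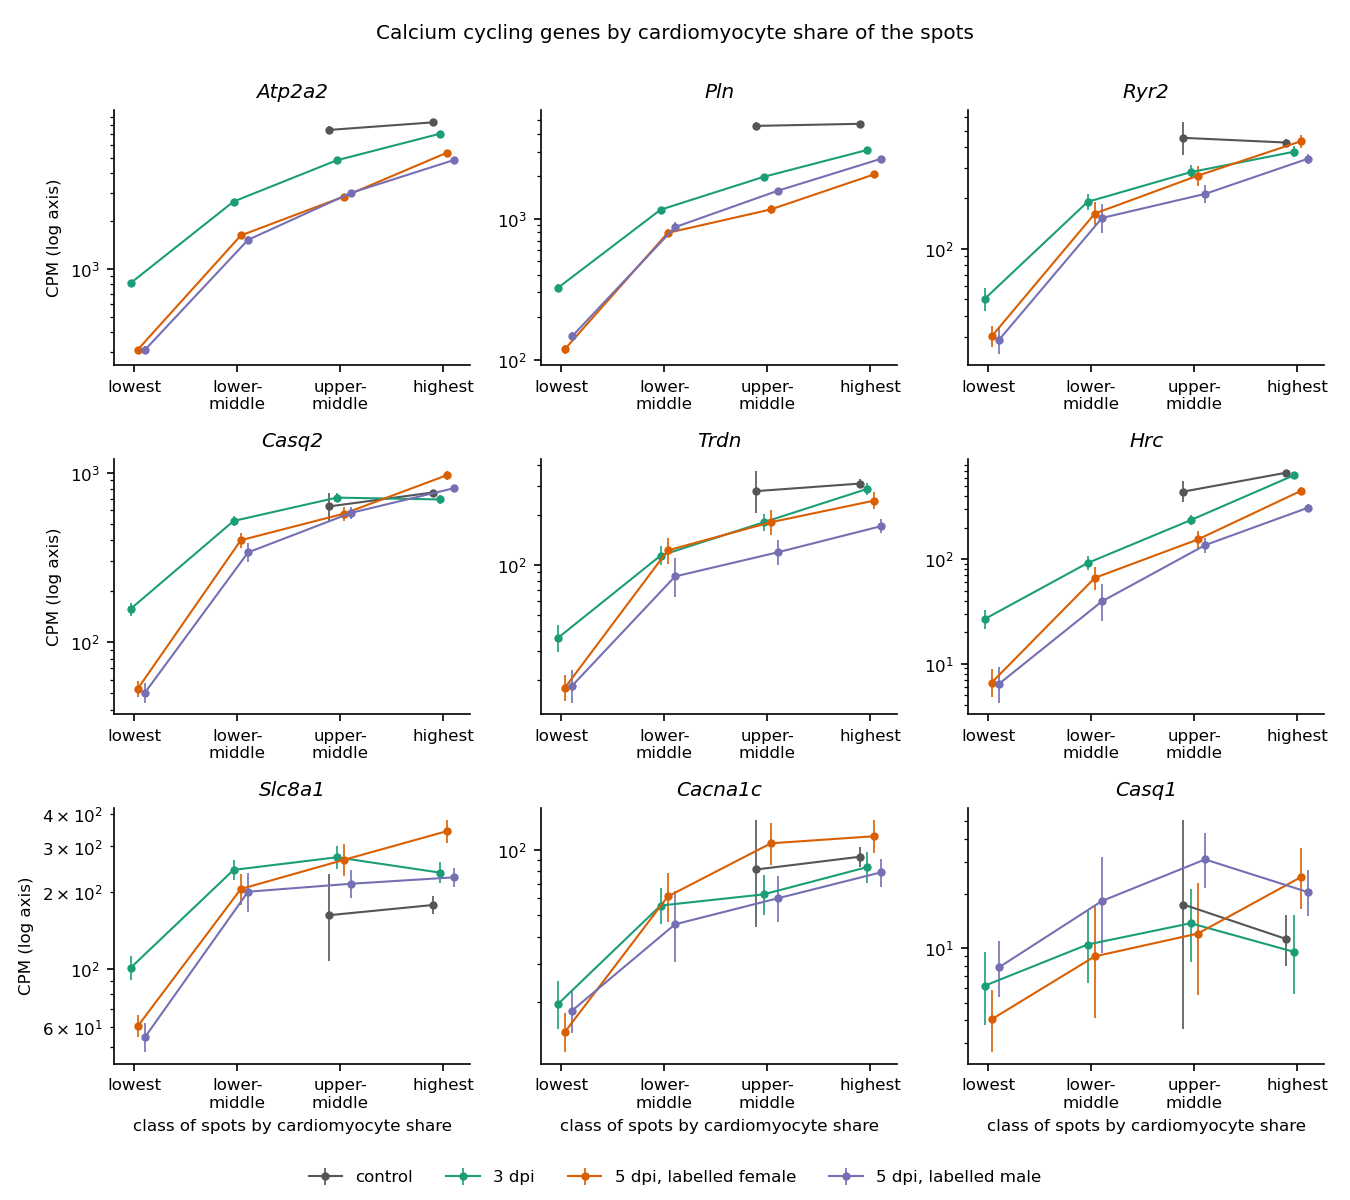
CPM (log axis) of the 9 detected calcium cycling genes in the classes of spots, from the lowest to the highest cardiomyocyte share, for each section. Points are sums over the spots of a class with exact 95% Poisson intervals, classes with under 10 spots are not drawn, and every gene has its lowest level in each infarcted section in the lowest class, from 6.41 to 26.7 CPM for Hrc.

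The lowest class had higher sums of the marker genes listed for fibroblasts, macrophages, neutrophils and smooth muscle, but not of every other list. None of these sums was tested. The smooth muscle list held Myh11, Tagln, Cnn1, Acta2 and Mylk, and whether its RNA came from smooth muscle or from other cells was not tested. The summed level of 5 fibroblast markers went from 2460, 3972 and 2343 CPM in the highest class to 9598, 17263 and 15655 in the lowest, that of 5 macrophage markers from 1083, 1276 and 879 to 6137, 8585 and 7738, that of 3 neutrophil markers from 28.1, 75.7 and 25.1 to 340, 263 and 242, and that of 5 smooth muscle markers from 318, 478 and 368 to 943, 2177 and 1755. That of 4 pericyte markers went the other way, from 420, 519 and 350 to 183, 234 and 285, and that of 5 endothelial markers was higher in the lowest class at 3 dpi (588 to 666) and lower at 5 dpi (733 to 469 and 616 to 588). The 6 skeletal muscle markers summed to 12.9, 22.9 and 10.4 CPM in the highest class and 42.5, 28.4 and 26.1 in the lowest. Their part in the members' values was not tested. Other lists of heart muscle genes moved with the calcium cycling genes: 18 of 18 tested filament genes were lower (median log2 difference -3.20), as were 19 of 20 channel and connexin genes (median -2.98). The 10 cardiomyocyte genes set the classes, so their fall was fixed by that choice and is not counted as a result.

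In a wider list of 58 tested calcium handling genes 27 were lower and 16 higher, against 28.1% and 29.3% of all genes, so the share of higher genes was near that of all genes (median -0.18 for the list and 0.05 for all genes). The junction genes went with the members, 10 of 11 being lower, among them Jph2, which holds the store close to the cell membrane, at -2.26 and Tmem38a, a counter-ion channel of the store, at -3.80. The lowest value was that of Strit1, which encodes DWORF, a peptide that relieves SERCA of its inhibitors, at -5.04 ± 0.36 (edgeR quasi-likelihood test, Benjamini-Hochberg adjusted p = 3.56e-10). Cmya5, Akap6 and Cacnb2 fell by 3.54, 3.30 and 3.13 on the log2 scale. Highest were Mcub, an inhibitory subunit of the mitochondrial uniporter, at 1.99, the calcium-binding protein S100a4 at 1.82, the ryanodine receptor partner Fkbp1b at 1.80, Bin1 at 1.45 and the store-entry channel Orai2 at 1.18. Of the 9 genes of the store lumen and store entry none was lower, 5 were higher and 4 did not pass, with a median of 0.33. Calr, a lumen protein found in most cells, was among the higher at 1.01.

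Nearer to the muscle, between the upper-middle and the highest class, 5 of the 9 members were lower and none higher, against 5.56% and 3.95% of all genes. These were Hrc (-1.55 ± 0.19), Pln (-0.90 ± 0.16), Atp2a2 (-0.89 ± 0.15), Ryr2 (-0.76 ± 0.14) and Trdn (-0.71 ± 0.15), with Benjamini-Hochberg adjusted p from 4.11e-05 for Hrc to 0.00488 for Trdn in the edgeR quasi-likelihood test. Casq2 (-0.61, adjusted p = 0.116), Cacna1c (-0.47, 0.0962), Slc8a1 (-0.26, 0.368) and Casq1 (-0.02, 0.989) did not pass that test. Casq2 passed without the 3 dpi section (-0.79, adjusted p = 0.000791, same test) and Trdn did not without the second 5 dpi section (adjusted p = 0.0521). Without the section as a block none of the 5 passed, with adjusted p from 0.0565 to 0.193 in the same test. Of the filament genes 4 of 18 were lower, of the channel and connexin genes 7 of 20, and of the wider calcium list 8 of 58 with 2 higher. Those named from that list were Strit1 (-1.42), Pde3a (-0.96), Tmem38a (-0.78), Cmya5 (-0.77) and Ank2 (-0.77) on the lower side and the calcineurin regulator Rcan1 (0.78) and S100a6 (0.63) on the higher. Fibroblast markers summed to 5830, 8716 and 5720 CPM in the upper-middle class against 2460, 3972 and 2343 in the highest, and pericyte markers to 382, 498 and 352 against 420, 519 and 350. Mitochondrial UMIs made up 27.8%, 26.8% and 20.2% against 38.9%, 40.9% and 28.7%. Their part in these differences was not tested.

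Since the classes follow the share of cardiomyocyte RNA, the genes were next set against that RNA, as UMIs per 1000 UMIs of the 10 cardiomyocyte genes. By this measure Hrc fell and Slc8a1, Cacna1c and Casq1 rose toward cardiomyocyte-poor tissue, and the other 5 tested members did not pass the test. Of the 9 members 1 was lower and 3 were higher in the lowest class, against 0.286% and 98.3% of all genes. The median log2 difference of the members was 0.53, that of all genes 4.50, of the filament genes 1.11 and of the channel and connexin genes 1.45. Of the 10 cardiomyocyte genes, which make up the denominator, 7 were lower and 2 higher (median -0.72).

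Hrc went from 6.65 per 1000 cardiomyocyte UMIs in the highest class to 2.55 in the lowest at 3 dpi, from 5.44 to 1.94 in the first 5 dpi section and from 3.74 to 1.33 in the second. This is a log2 difference of -1.45 ± 0.34 (edgeR quasi-likelihood test, Benjamini-Hochberg adjusted p = 2.23e-05), with the lowest class below the highest in 3 of 3 sections. The call held in 13 of 13 other ways of processing the data, with log2 differences from -1.92 to -0.87. A fall of this size was not particular to Hrc, since Ckm, the muscle creatine kinase and 1 of the genes in the denominator, fell from 30.8 to 13.2, from 31.5 to 9.84 and from 26.4 to 8.75 per 1000, a log2 difference of -1.48. Between the upper-middle and the highest class the difference was -0.77 ± 0.32 (adjusted p = 0.0489, same test), 1 of 9 members against 0.105% of all genes (35.2% were higher). That call passed in only 6 of the 13 other ways of processing, the direction being the same in all, and it was lost without either of the 5 dpi sections (adjusted p = 0.215 without the first and 0.323 without the second) and without the block (0.138).

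Slc8a1 went the other way, from 2.51 to 9.71, from 4.18 to 17.7 and from 2.75 to 11.3 per 1000 cardiomyocyte UMIs between the highest and the lowest class. The log2 difference was 2.03 ± 0.33 (edgeR quasi-likelihood test, Benjamini-Hochberg adjusted p = 5.48e-10). Cacna1c rose from 0.878 to 1.87, from 1.40 to 4.28 and from 0.952 to 3.78, a log2 difference of 1.59 ± 0.35 (adjusted p = 4.54e-06, same test). Casq1 rose by 2.40 ± 0.42 on 17 to 47 UMIs in each of these sums. NCX1 and the L-type channel are also known from smooth muscle, whose markers are given above, and the part of other cells in these 3 differences was not tested.

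The remaining 5 members did not pass: Trdn (0.63, adjusted p = 0.053 in the edgeR quasi-likelihood test with Benjamini-Hochberg adjustment), Ryr2 (0.53, 0.095), Casq2 (0.50, 0.117), Atp2a2 (0.24, 0.442) and Pln (0.11, 0.725). Without the 3 dpi section Trdn (0.86) and Ryr2 (0.65) passed as well. The measure depends on the genes in its denominator. Actc1 rose from 124, 158 and 189 per 1000 cardiomyocyte UMIs in the highest class to 315, 294 and 392 in the lowest, and Tnnt2 from 77.4, 87.3 and 79.7 to 154, 280 and 237. With both genes left out, a choice made after these values were seen, 8 of the 9 members rose and Hrc was still lower. With all 10 genes in the denominator 98.3% of all genes were higher, so a rise by this measure is not particular to the members. For the 5 members above, then, the level per cardiomyocyte RNA is not settled by these data.

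**Figure D2:**
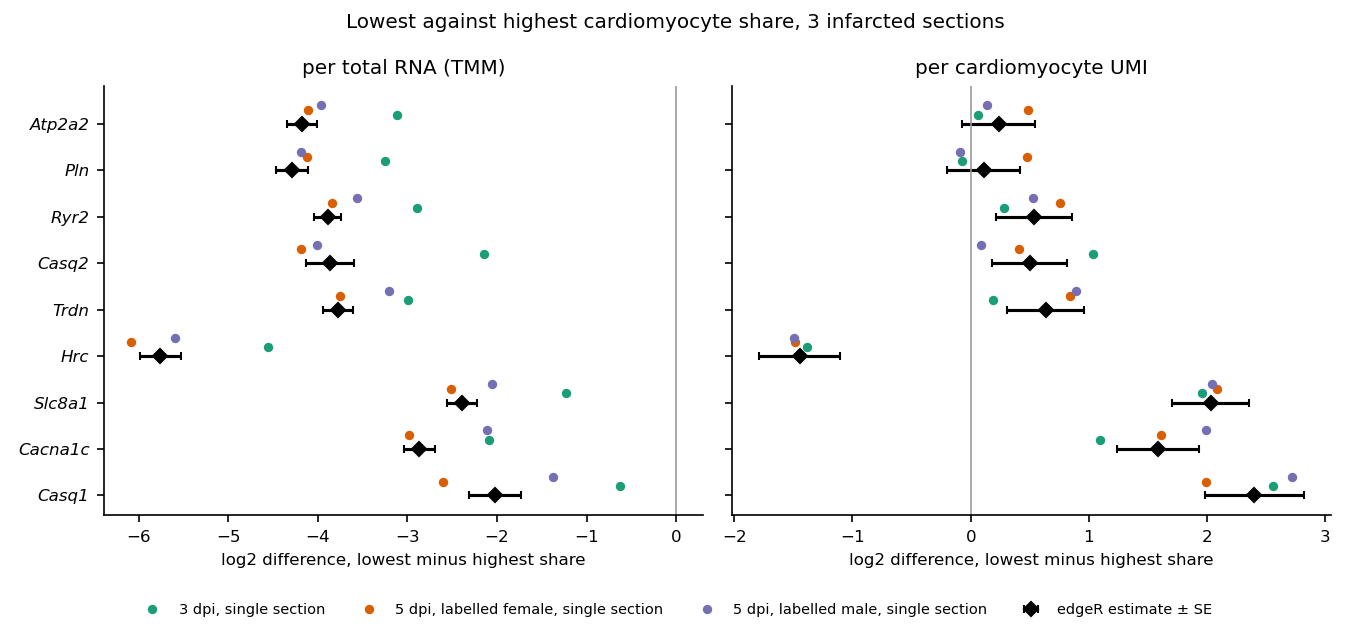
Log2 difference of the lowest against the highest class of spots for each calcium cycling gene, relative to all RNA (left, TMM scaling) and per cardiomyocyte UMI (right). Diamonds are edgeR estimates with SE over the 3 infarcted sections and circles the single sections (left, from CPM without TMM factors). Hrc lies lowest in both panels, at -5.76 and -1.45, and Slc8a1, Cacna1c and Casq1 lie right of 0 in the right panel.

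Ratios between members need no denominator from other genes. Pln per Atp2a2, the balance of the pump's brake to the pump, stood at 43.4, 38.4 and 55.0 Pln UMIs per 100 Atp2a2 UMIs in the highest class and at 39.5, 38.1 and 47.1 in the lowest. The mean log2 change was -0.12 ± 0.11 (SD, n = 3 sections), so the pair changed nearly together. The control, at 56.6 (95% interval 55.5 to 57.6), lay above the 3 dpi and first 5 dpi sections, while the second 5 dpi section at 55.0 (53.3 to 56.8) overlapped it.

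The RNAs of the store proteins Hrc and Casq2 parted. There were 90.6, 46.4 and 38.2 Hrc UMIs per 100 Casq2 UMIs in the highest class of the 3 infarcted sections, 33.0, 26.9 and 23.4 in the upper-middle, 17.7, 16.5 and 11.7 in the lower-middle and 17.0, 12.5 and 12.7 in the lowest. The mean log2 change from the highest class was -0.98 ± 0.41 in the upper-middle and -1.96 ± 0.42 in the lowest class (SD, n = 3), lower in 3 of 3 sections. The highest class of the control had 87.6 (82.9 to 92.6), which the 3 dpi section overlapped at 90.6 (83.5 to 98.3) and both 5 dpi sections lay under. The smallest two-sided p that an exact sign-flip permutation test can give with 3 sections is 0.25, and the ratios are given as descriptions.

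Against the pump, Hrc stood at 8.90, 8.33 and 6.39 UMIs per 100 Atp2a2 UMIs in the highest class and 3.27, 2.12 and 2.06 in the lowest, a mean log2 change of -1.68 ± 0.27. Slc8a1 per 100 Atp2a2 UMIs went from 3.36, 6.40 and 4.70 to 12.4, 19.3 and 17.6, a mean log2 change of 1.80 ± 0.17, higher in 3 of 3 sections. Slc8a1 thus rose relative to Atp2a2 in each infarcted section, and in the highest class too each infarcted section lay above the control at 2.13 (1.97 to 2.31). Casq2 per 100 Atp2a2 UMIs rose from 9.83 to 19.2 at 3 dpi and went from 18.0 to 17.0 and from 16.7 to 16.2 at 5 dpi, so the sections did not share a direction in the lowest class. In the classes between, the ratio was above that of the highest class in 3 of 3 sections, with mean log2 changes of 0.32 ± 0.24 in the upper-middle and 0.62 ± 0.33 in the lower-middle class.

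**Figure D3:**
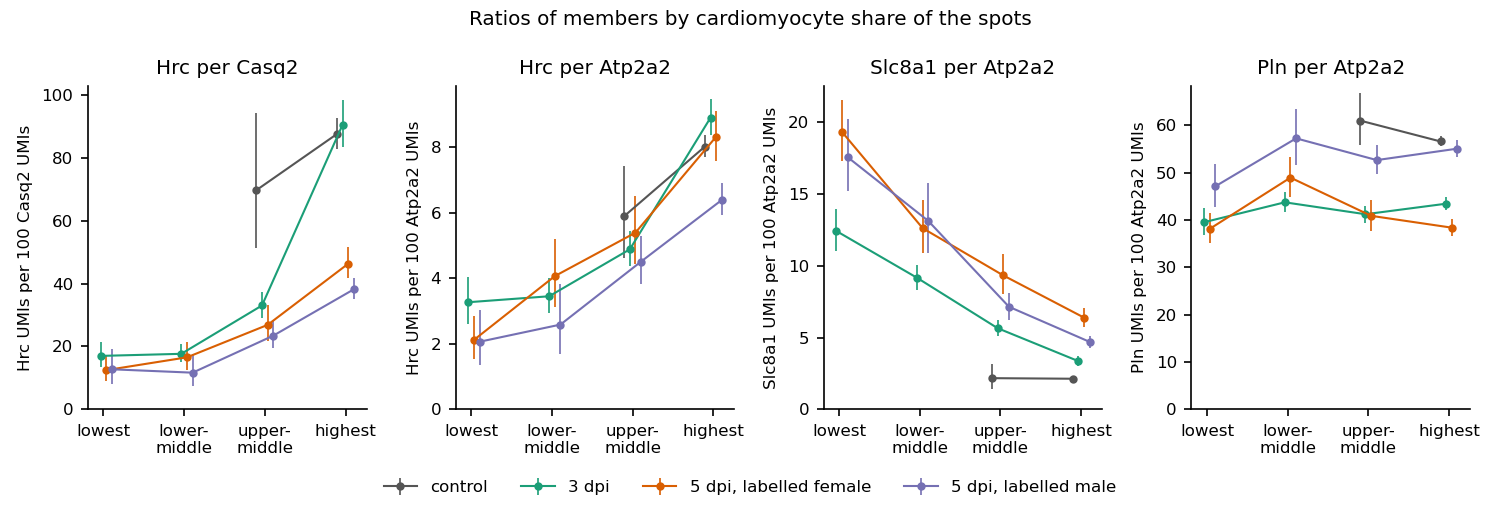
UMIs of 1 member per 100 UMIs of another in the classes of spots, with exact 95% intervals for counting error, for each section. Hrc per Casq2 falls from 90.6, 46.4 and 38.2 to 17.0, 12.5 and 12.7 in the infarcted sections, Slc8a1 per Atp2a2 rises there and Pln per Atp2a2 lies between 38.1 and 57.2 there and at 56.6 and 61.0 in the 2 classes drawn of the control.

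The RefSeq sequences just upstream of the gene starts (GRCm38.p6, 250 bases, 5′ to 3′ on the gene's strand) are shown for Hrc and Slc8a1, which went opposite ways per cardiomyocyte UMI, and for Casq2, the store protein set against Hrc in the ratios. Capitals mark matches on either strand to the MEF2 motif, the E-box CANNTG, the MCAT motif CATTCC, the GATA motif AGATAA and the CArG motif. The windows lie at chr7:45335019-45335268 (Hrc, plus strand), chr3:102086165-102086414 (Casq2, plus strand) and chr17:81738388-81738637 (Slc8a1, minus strand).
Hrc: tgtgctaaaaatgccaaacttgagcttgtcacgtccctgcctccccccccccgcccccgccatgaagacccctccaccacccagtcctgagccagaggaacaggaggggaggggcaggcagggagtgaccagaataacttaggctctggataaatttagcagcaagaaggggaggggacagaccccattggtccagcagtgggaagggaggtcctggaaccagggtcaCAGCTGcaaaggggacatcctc
Casq2: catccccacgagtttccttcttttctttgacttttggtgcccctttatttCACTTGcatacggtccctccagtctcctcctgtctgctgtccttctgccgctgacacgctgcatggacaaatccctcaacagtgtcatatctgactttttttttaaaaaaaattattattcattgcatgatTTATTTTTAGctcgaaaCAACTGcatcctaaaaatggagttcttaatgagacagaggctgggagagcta
Slc8a1: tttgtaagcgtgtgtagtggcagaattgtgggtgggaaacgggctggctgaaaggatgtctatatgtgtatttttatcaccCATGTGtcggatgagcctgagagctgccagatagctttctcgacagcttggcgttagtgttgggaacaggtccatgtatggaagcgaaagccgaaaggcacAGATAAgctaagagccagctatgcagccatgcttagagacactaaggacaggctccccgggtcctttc
Casq2 held the only MEF2 match among the 9 windows of the 7 members with an entry, beginning 69 bases upstream of its start, while 2.92% of 32851 windows of this length held one. A GATA match lay in the windows of Pln and Slc8a1 (9.99% of all windows), an E-box in all 9 (66.2% of all windows), and MCAT (12.6%) and CArG (1.47%) matches in none. A match of letters is a description of the window and not a site of binding.

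The same genes were read by distance from the cardiomyocyte-poor patch, a connected area of at least 10 spots under 0.5 times the 90th percentile. At 3 dpi Hrc per 1000 cardiomyocyte UMIs went from 7.31 more than 8 steps outside the edge through 5.84, 5.83 and 3.93 nearer to it, and on to 2.72, 2.29 and 2.26 inside. In the first 5 dpi section the values were 5.80, 5.66, 4.95, 2.78, 2.50, 2.13 and 1.25, and in the second 3.86, 3.12, 3.03, 2.43, 1.54, 1.01 and 1.12. In each section the value within 2 steps outside the edge was already under that at 5 to 8 steps.

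Slc8a1 rose over the same path, from 2.08 far outside to 4.50 at the outer edge and 8.76 deep inside at 3 dpi, from 3.96 to 5.99 and 17.4 in the first 5 dpi section and from 2.68 to 3.71 and 10.8 in the second. Casq2 rose from 6.96 to 11.0 and 14.5 at 3 dpi but stayed at 11.6 and 11.6 and reached 16.9 in the first 5 dpi section, and at 9.75, 9.38 and 10.3 in the second. Outside the patch Atp2a2 ranged only from 73.8 to 77.4, from 60.3 to 65.3 and from 53.2 to 58.2 in the 3 sections, and more than 4 steps inside it stood at 63.9, 95.6 and 61.0. Markers of stressed border muscle (Nppb, Ankrd1, Myh7, Xirp2 and Acta1) were at 6911, 8070 and 9405 CPM in the upper-middle class and 3652, 6663 and 4146 in the highest, with 1150 in the control's highest class, so the muscle of the highest class also carried them.

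**Figure D4:**
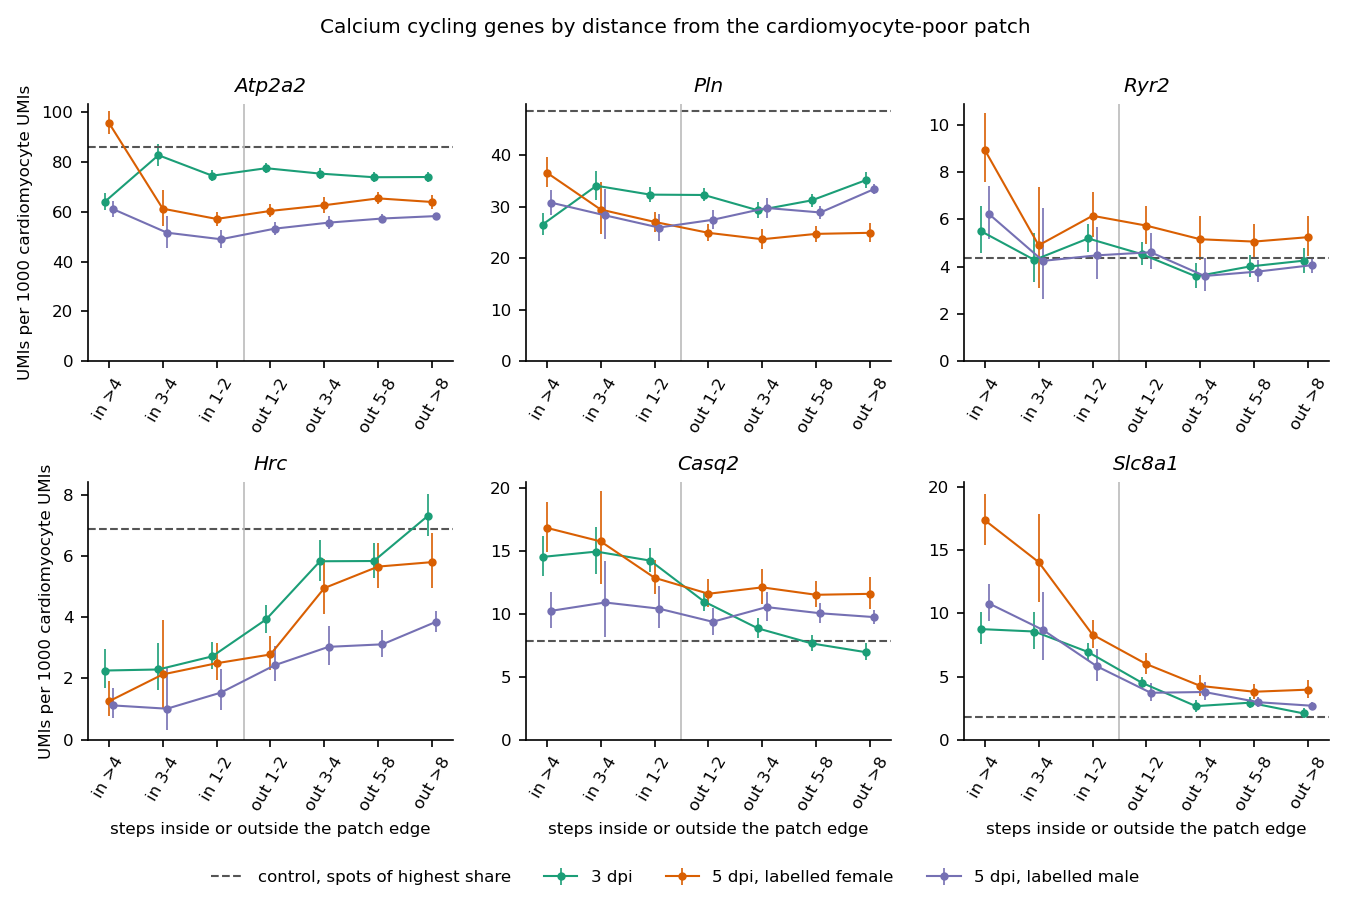
UMIs per 1000 cardiomyocyte UMIs of 6 calcium cycling genes by steps inside or outside the edge (grey line) of the cardiomyocyte-poor patch, with exact 95% Poisson intervals; the dashed line is the control's highest class. Hrc falls and Slc8a1 rises toward the inside in each infarcted section, and Atp2a2 lies between 53.2 and 77.4 outside the edge.

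**Figure D5:**
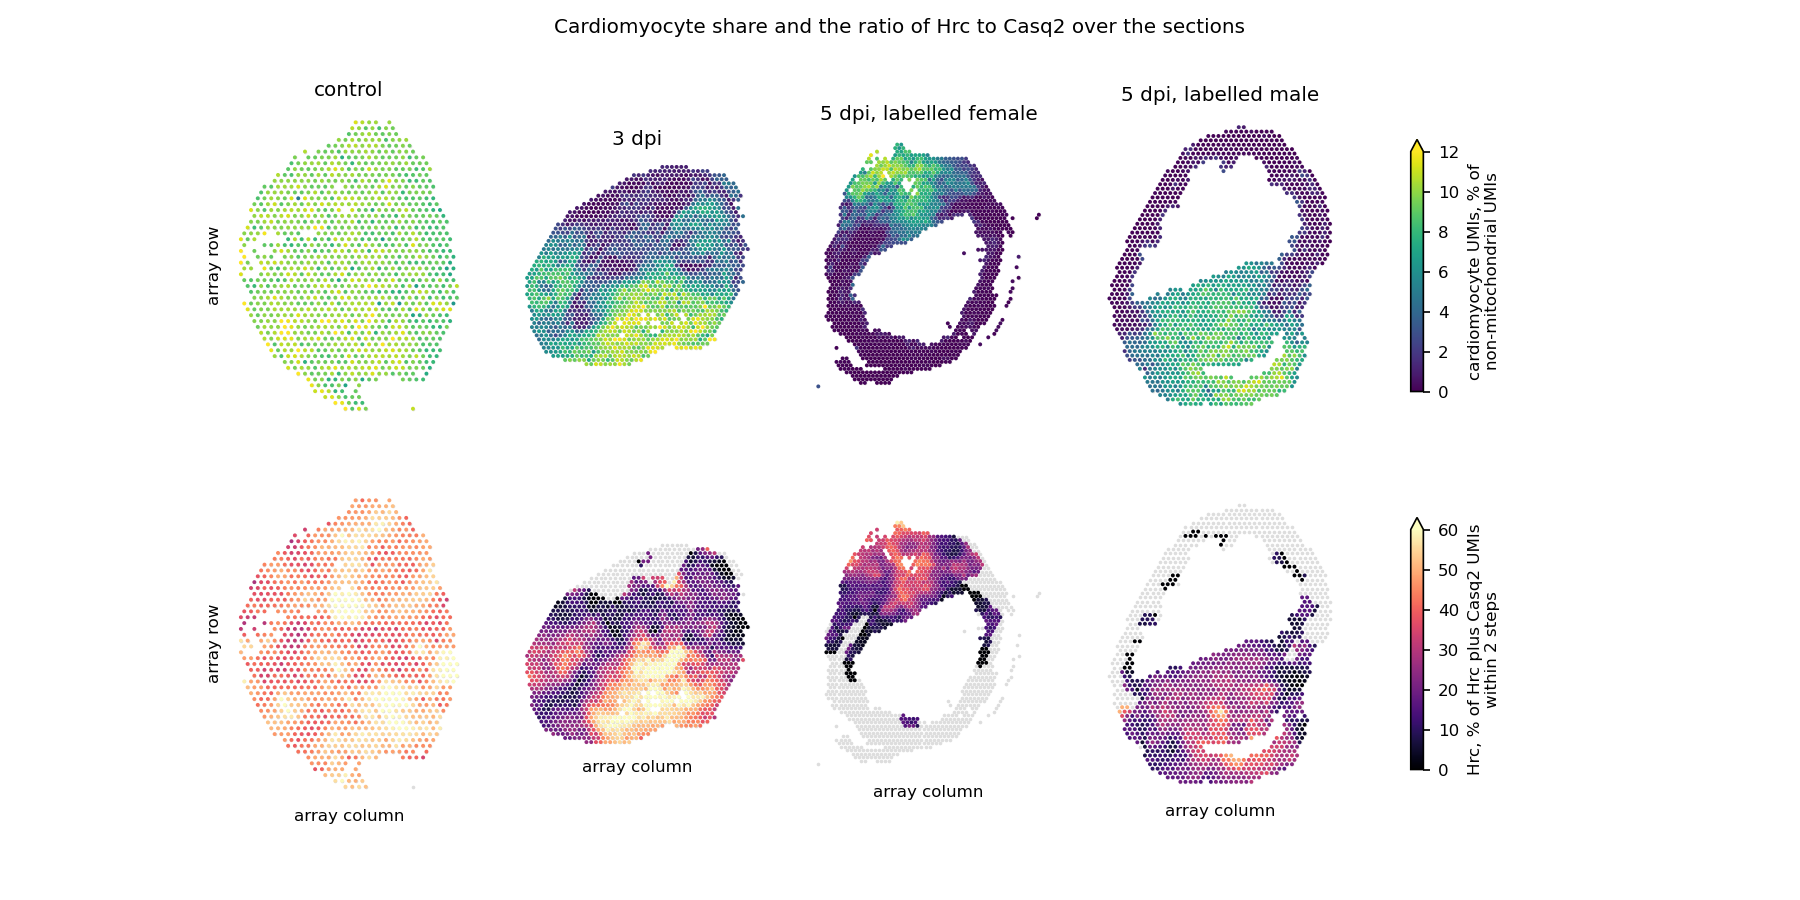
Maps of the 4 sections by array row and column. The upper maps show the cardiomyocyte share of non-mitochondrial UMIs in each spot and the lower maps Hrc as a percentage of Hrc plus Casq2 UMIs in the spot and its neighbours within 2 steps (grey where these hold under 10 UMIs, both colour scales open at the top), with medians of 46.7% (control), 25.4% (3 dpi), 20% and 22.4% (5 dpi).

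The maps of Hrc against Casq2 show this pattern in place. In the highest class the median neighbourhood held 50% Hrc at 3 dpi (quartiles 39.2% and 56.0%), 32.5% in the first and 26.7% in the second 5 dpi section, against 46.7% in the control (41.5% and 52.0%). In the upper-middle class it held 25.0%, 21.9% and 19.1%, and in the lowest class 13.8%, 10.2% and 9.09%. The medians of the lowest class rest on 372 of 520, 286 of 951 and 176 of 591 spots, the others having under 10 Hrc plus Casq2 UMIs within 2 steps, so most of its spots at 5 dpi have no value. Neighbourhoods overlap and share spots, so these medians are descriptions.

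Muscle-rich spots of the infarcted sections were then set against those of the control. In the highest class no member lay 1.5-fold below or above the control in each infarcted section when counted per cardiomyocyte UMI, where 0.572% of 7513 genes were lower and 12.1% higher. Pln missed that fold narrowly, with the control 1.498-fold above the nearest and 1.94-fold above the farthest infarcted section. Without the 3 dpi section 1 member was lower and 2 were higher by that rule. In CPM 1 member, Pln, was lower (1.26% of genes lower, 8.28% higher), at 4715 CPM in the control and 3070, 2063 and 2665 in the infarcted sections. It no longer reached the fold when mitochondrial UMIs were counted in the denominator, and without the 3 dpi section 2 members were lower and 1 higher. Per 1000 cardiomyocyte UMIs Pln had 48.6 in the control and 32.4, 25.1 and 32.2 after infarction. Counted over all spots per cardiomyocyte UMI, Pln was lower and Slc8a1 and Casq1 higher than in the control in each infarcted section (0.344% of genes lower, 87.1% higher).

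Atp2a2 was lower in each infarcted section and reached that fold in none, at 85.9 per 1000 cardiomyocyte UMIs in the control's highest class and 74.7, 65.3 and 58.5 in the others. Slc8a1 was higher in each, at 1.83 against 2.51, 4.18 and 2.75, which is 1.37-fold to 2.28-fold. Hrc stood at 6.89 in the control and 6.65 at 3 dpi but 5.44 and 3.74 at 5 dpi, Casq2 at 7.86 against 7.34, 11.7 and 9.79, and Trdn at 3.18 against 3.02, 2.96 and 2.07. For Ryr2 (4.37 against 3.95, 5.25 and 4.12) and Cacna1c (0.956 against 0.878, 1.40 and 0.952) the control lay inside the range of the infarcted sections. The same held for Casq2 and for Casq1 (0.115 against 0.101, 0.299 and 0.246). Mitochondrial UMIs made up 40.4% of the highest class in the control, 38.9% at 3 dpi, 40.9% in the first and 28.7% in the second 5 dpi section, so the section with the lowest Atp2a2, Hrc and Trdn per cardiomyocyte UMI also had the lowest mitochondrial share; its part in these values was not tested.

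Profiles most like those of the members were sought over 14 sums of class and section, on log2(CPM + 1). The candidates were genes with a mean of at least 10 CPM outside the set and outside the 10 cardiomyocyte genes. Over the summed members the highest Pearson correlations were with Pygm (0.996), Fndc5 (0.995), Asb2 (0.994), Got1 (0.994) and Pdk2 (0.994). For Hrc they were with Lpl, Mdh2, Ndufa9, Atp5g3 and Ndufb7 (0.996 to 0.994) and for Slc8a1 with Hspb7, Pacsin3, Pdlim5, Nrap and Pkp2 (0.988 to 0.976). The sums share sections and all vary with the amount of muscle, so these values describe likeness and were not tested.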

How the data were processed

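Spatial RNA was measured in 4 heart sections. The authors deposited raw UMI counts per gene and spot, made with Space Ranger 1.3.1 per the file headers and not normalized. The labels name the build mm10, and upstream sequences are RefSeq's for GRCm38.p6. Spots marked as under tissue were kept with at least 500 UMIs, 250 genes and at most 50% mitochondrial UMIs. In the matrix of the second 5 dpi section 623 spots are unmarked and entered no comparison, and 5 marked spots are not in the matrix. CPM was taken over the summed non-mitochondrial UMIs. Intervals are exact Poisson or binomial at 95% and cover counting error only.

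The 12 sums of 4 classes in 3 infarcted sections were fitted with edgeR 4.0.16 (limma 3.58.1, R 4.3.3), quasi-likelihood test, filterByExpr, section as a block because classes of a section share a heart, Benjamini-Hochberg threshold 0.05, and either TMM scaling or the cardiomyocyte UMI sum as library size. The code was tested on simulated data. Sections, not spots, are the replicates. With the block, p-values rest on the scatter left after class and section over all 12 sums, with dispersion estimates drawn together across genes. They do not measure the spread of a single gene's differences in the 3 sections alone. The control entered no test. Named genes of the wider list are up to 5 at each end past the threshold with 1 direction in 3 of 3 sections. Jph2, Calr and Ckm, and the profiles most like Hrc and Slc8a1, were chosen after their values were seen. Members, lists and classes were chosen with earlier results of these data known. Alternatives were DESeq2 1.42.0, no filter on genes or spots, no block, other scalings, classes and cardiomyocyte genes, and leaving out each section.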

Additional observations from a re-analysis of the deposited data

Results flagged for a closer look

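In 4 cases the 3 dpi section and both 5 dpi sections moved in opposite directions between the upper-middle and the highest class, and none of these differences was tested, since 3 dpi is a single section. In CPM, Casq2 had a log2 difference of 0.035 at 3 dpi and -0.75 and -0.48 at 5 dpi, and Slc8a1 had 0.20 at 3 dpi and -0.37 and -0.08 at 5 dpi. Per cardiomyocyte UMI, Atp2a2 had 0.027 at 3 dpi and -0.18 and -0.15 at 5 dpi, and Trdn had -0.086 at 3 dpi and 0.30 and 0.01 at 5 dpi.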

How the results depend on the processing

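Of 156 counts of members under the alternatives 127 stayed within 1.5 times the count reported, and of 499 single values 446 stayed the same. For a member test, the same means that it kept its direction and side of the threshold. For a ratio between members, which has no test, it means a mean log2 change within the SD over sections of the one reported. All 9 members fell in the lowest class under every alternative run for TMM scaling. Per cardiomyocyte UMI, the fall of Hrc and the rise of Slc8a1, Cacna1c and Casq1 in the lowest class passed under all 13 alternatives. The size of the rise varied, with log2 differences from 1.48 to 3.15 for Slc8a1, 1.04 to 2.96 for Cacna1c and 1.53 to 3.59 for Casq1. The causes of the changes below were not tested.

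For upper-middle against highest, TMM scaling, 0 members were lower without the section as a replicate block (the tests pair the classes of a section) and 3 with classes by position. Casq1, which never passed there, had log2 differences of 0.0069 without the spot filter, 0.14 without TMM factors and -0.43 to 0.37 when 1 section was left out. In the lowest class per cardiomyocyte UMI, 5 members were higher with DESeq2, 8 without Actc1 and Tnnt2, and 3 to 5 when 1 section was left out (5 without 3 dpi). Over the settings 9111 to 13720 of all genes were higher there, 98.3% of those tested in the setting reported. Pln, not called there, had -0.080 with classes at pooled quartiles, -0.036 without Mb and Ckm, -0.26 with separate genes for share and denominator and -0.081 to 0.21 when 1 section was left out, and Atp2a2 had -0.25 with separate genes.

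For upper-middle against highest per cardiomyocyte UMI, 0 members were lower with every gene kept, without the replicate block, with classes by position, without Actc1 and Tnnt2 and with separate genes, 1 was higher with pooled quartiles, and 0 to 1 were lower when 1 section was left out (0 without either 5 dpi section). Ryr2, not called, had -0.014 without Myh6, -0.046 with separate genes and -0.054 to 0.12 when 1 section was left out, Atp2a2 had 0.054 without Actc1 and Tnnt2, and Trdn had -0.10 with separate genes and -0.040 to 0.15 when 1 section was left out. Pln per Atp2a2 changed by 0.0061 in the lowest class by position.

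Against the control, spots of the highest class per cardiomyocyte UMI had 1 member lower without the spot filter, without Mb and Ckm and with separate genes, and 0 to 1 lower and 0 to 2 higher when 1 section was left out. In CPM they had 0 lower at 2-fold and with all UMIs as denominator, and 1 to 2 lower and 0 to 1 higher when 1 section was left out. In all spots per cardiomyocyte UMI 0 were lower and 1 higher at 2-fold, 2 were lower without Mb and Ckm and with separate genes, 0 without Actc1 and Tnnt2, and 1 to 2 were lower and 1 to 2 higher when 1 section was left out. The higher numbers came without the 3 dpi section, and the 1 gene higher in all spots without the second 5 dpi section.

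Counts over all genes moved more. For upper-middle against highest, TMM scaling, 101 to 1096 genes were lower and 52 to 900 higher, and per cardiomyocyte UMI 0 to 26 were lower and 28 to 7245 higher. For lowest against highest, TMM scaling, 1868 to 3120 were lower and 2402 to 5386 higher, and per cardiomyocyte UMI 9 to 48 were lower and 9111 to 13720 higher. Against the control, 4 to 99 genes were lower and 353 to 1493 higher in spots of the highest class per cardiomyocyte UMI, and 12 to 263 and 271 to 1039 in CPM. In all spots 9 to 43 were lower and 6376 to 7636 higher per cardiomyocyte UMI, and 405 to 1120 and 1994 to 5069 in CPM. With 1 control section, 1 section at 3 dpi and 2 at 5 dpi, no difference between time points was tested. Casq1, at 9 to 47 UMIs a class in the infarcted sections and 0 to 40 in the control, is the least precise of the members tested.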

Other observations

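The 623 spots of the second 5 dpi section that are not marked as tissue held all members but Sln. Their summed levels were 920 CPM for Atp2a2, 629 for Pln, 154 for Casq2, 78.5 for Slc8a1, 74.5 for Ryr2, 52.9 for Hrc, 45.8 for Trdn, 19.7 for Cacna1c and 7.63 for Casq1, each below the level in the marked spots of that section. The 10 cardiomyocyte genes took 1.62% of their non-mitochondrial UMIs, against 3.58% in the marked spots.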
